A study of Mus musculus with 24 samples.

Results

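The probes for mmu-miR-218, mmu-miR-338-3p and mmu-miR-375 make up 3 of the 566 mouse miRNA probes and of the 618 probes of all kinds on an nCounter panel. They were chosen by name, selected on measured values of these same samples in which normal lung lay above lung metastasis and normal mammary gland (NMG). The levels in normal lung, lung metastasis and NMG are therefore given as a description with no test. The samples came from a mouse model of triple-negative breast cancer, in which JygMC(A) mammary tumor cells carrying GFP and luciferase reporters (JygMC(A)-GFP/Luc) were placed in the mammary fat pad and spread to the lungs. The question put to the miRNA panel was how miRNA levels differ between the areas of the primary tumor (PT), its metastases, the normal tissues and the cultured cells. The assay counts color-coded probes bound to each miRNA in a lane, with 1 lane per sample.

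All tissue came from BalbC nude mice, which lack mature T cells, and was cut out by laser capture. The groups were carcinoma areas of the PT (n = 5), EMT-like areas of the PT (n = 7), lung metastasis (n = 4), normal lung parenchyma (n = 2) and NMG (n = 2). EMT stands for epithelial-to-mesenchymal transition. The JygMC(A)-GFP/Luc cells in culture, a single line, were measured as monolayer (n = 2) and as third-generation 3D spheres from ultra-low adherent plates (n = 2). In the study's methods the mice were young adult females, the PT was removed some weeks after injection of the cells and lung metastases were collected later. The tumor groups share animals, and the first replicate of each tumor group carries a label naming 3 animals and was treated as 1 sample. The first replicates of normal lung and NMG come from the same mouse, and so do the second replicates.

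A miRNA is cut from a hairpin precursor and guides a silencing complex to messenger RNAs, mainly through its seed, the bases from position 2 to 8. miR-218 is cut from 2 hairpins in introns of Slit2 and Slit3, genes of secreted guidance ligands of Robo receptors, and is known from vessels and motor neurons. miR-338-3p comes from a hairpin within Aatk, a kinase gene active in the nervous system, and is known from oligodendrocyte maturation. miR-375 is known from pancreatic islets and other neuroendocrine cells, and from alveolar epithelium.

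Lanes differed in how much miRNA they held. The sum of mouse miRNA values was 589588 and 2334955 in the 2 normal lung samples and 559660 and 525225 in the 2 NMG samples. Carcinoma lanes held 113594 to 162045 and EMT-like lanes 110552 to 183539. Metastasis lanes held 61497 to 114004, and the cultures 24418 to 44953. The detection limit, set for each lane at 2 SD over the average of its 6 negative controls, lay between 4 and 21.4 deposited counts. Normalized values are deposited counts divided by a TMM lane factor, with values below 0 set to 0. After that scaling the limit lay between 3.46 and 9.15 in the normal tissues but between 27.5 and 34.4 in the cultures. Among tumor lanes it reached 34.7 in metastasis, 24.6 in carcinoma and 13.0 in the EMT-like samples, so that low levels could be read less well in the cultures and in some tumor lanes than in the normal tissues.

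miR-218 was high in both normal tissues and low in every tumor and culture sample. Its deposited counts were 819 and 3310 in normal lung and 547 and 514 in NMG. In carcinoma they were -1, -1, 4, -11 and 5, and in lung metastasis 1, -4, -1 and 4. In EMT-like areas they ran from 6 through a median of 12 to 27. The 4 cultures gave -7 and -6 as monolayer and -3 and -14 as 3D spheres. All 4 normal samples thus lay far above all 20 others, and among those 20 only 3 EMT-like samples passed the limit.

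miR-338-3p was also high in both normal tissues, with a higher floor in the tumors and cultures. Its deposited counts were 560 and 2438 in normal lung and 596 and 428 in NMG, so that in the first mouse the lung sample lay under the gland sample before scaling. Carcinoma samples gave 11, 16, 2, 24 and 18, and metastases 22, 12, 10 and 16. EMT-like areas ran from 8 through a median of 20 to 28. Monolayers gave 12 and 10 and 3D spheres 7 and 17. No tumor or culture sample fell below 0, and 11 of these 20 passed the limit of their lane, with the tumor and culture groups overlapping throughout.

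miR-375 was read in normal lung and in no other group. Its deposited counts were 254 and 484 in normal lung and 0 and 10 in NMG. The other 20 samples all lay below 0, from -16 to -3. Among the 3 miRNAs, miR-375 alone separated normal lung from NMG by detection, because both NMG values were under their limits, the higher one narrowly, at 10 against 10.4.

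**Figure D1:**
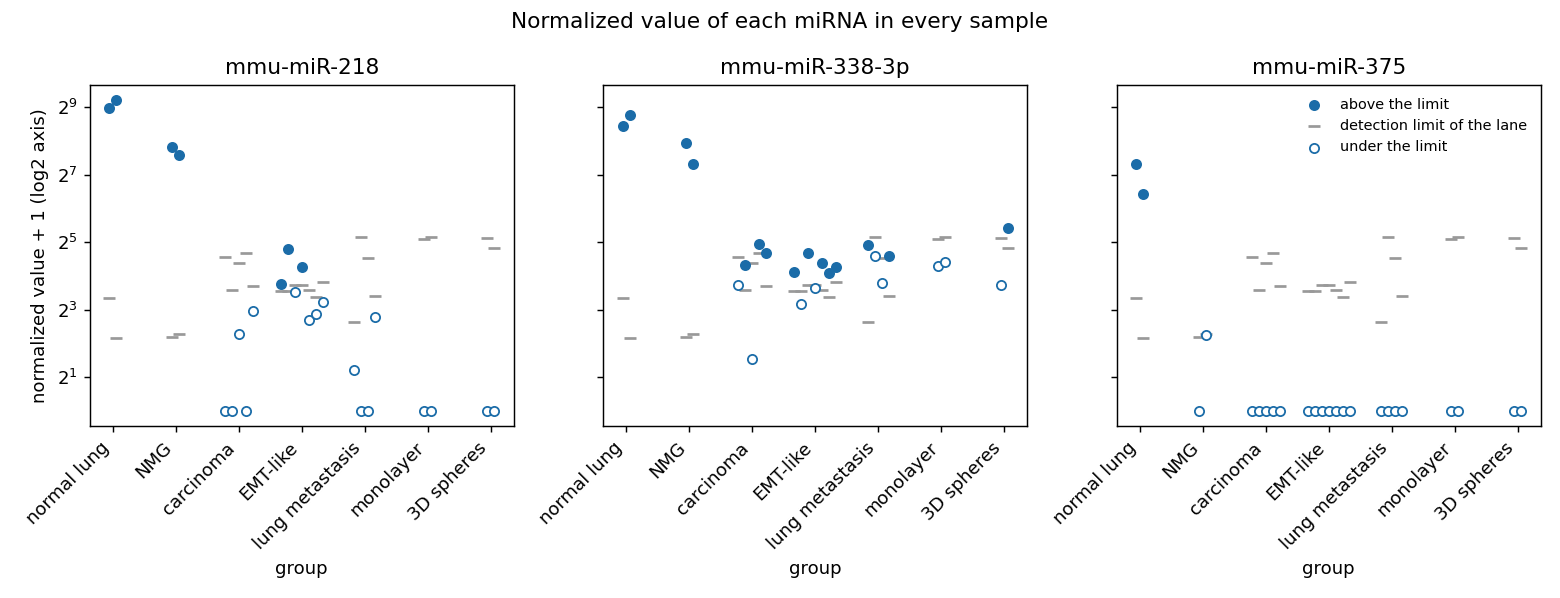
Normalized value plus 1 on a log2 axis for each miRNA, with 1 point per sample in 7 groups, filled where the deposited value passed the limit of its lane and open where it did not. Gray bars mark the scaled limit of each lane. miR-218 and miR-338-3p stand high in normal lung and NMG, and miR-375 stands high in the 2 normal lung samples.

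After scaling, the miR-218 level was 547 ± 56.7 (SD, n = 2) in normal lung and 208 ± 24.5 (SD, n = 2) in NMG. EMT-like areas followed at 12.6 ± 7.68 (SD, n = 7). Carcinoma stood at 2.13 ± 3.10 (SD, n = 5), lung metastasis at 1.79 ± 2.76 (SD, n = 4) and all 4 cultures at 0. The order was therefore normal lung, then NMG, then the rest, where carcinoma, metastasis and cultures did not differ beyond their spread. For miR-338-3p the level was 390 ± 60.7 (SD, n = 2) in normal lung and 202 ± 61.3 (SD, n = 2) in NMG, values further apart than either SD. Lower down came 3D spheres at 27.2 ± 21.2 (SD, n = 2), metastasis at 22.0 ± 6.71 (SD, n = 4) and monolayers at 19.5 ± 1.24 (SD, n = 2). Carcinoma with 17.5 ± 10.9 (SD, n = 5) and EMT-like tissue with 16.3 ± 5.39 (SD, n = 7) came last, and no neighbors among these 5 groups differed beyond their spread. The miR-375 level was 122 ± 50.5 (SD, n = 2) in normal lung, 1.86 ± 2.63 (SD, n = 2) in NMG and 0 in the other 5 groups. In bulk samples such as these, fewer cells of a type and less RNA per cell cannot be told apart.

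The values that chose the 3 miRNAs set normal lung apart from NMG less clearly for miR-218 and miR-338-3p than for miR-375. Against NMG, normal lung was 2.62-fold higher for miR-218 and 1.96-fold higher for miR-338-3p on the scale of value plus 1, and at least 25.0-fold higher for miR-375 with NMG set to its limit, or 11.6-fold when scaled by the top 100 miRNAs. Within the first mouse the ratio of lung to gland was 2.25 for miR-218 and 1.41 for miR-338-3p, and within the second it was 3.08 and 2.72. For miR-375 the ratio was at least 44.5 in the first mouse and at least 22.3 in the second. With lanes scaled by their miRNA total in place of TMM, the ratios within the mice were 1.42 and 1.45 for miR-218 and 0.892 and 1.28 for miR-338-3p, while miR-375 kept bounds of 28.1 and 10.5. The lung excess of miR-338-3p over NMG thus turned in the first mouse with the scaling.

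The same ratio was set beside that of the 249 mouse miRNAs above the limit in both normal lung samples, as a description, because these values chose the 3 miRNAs. With values under the limit set to it, miR-375 stood at position 2, where its ratio is a bound, miR-218 at 60 and miR-338-3p at 95. The median of the 249 on the log2 scale was 0.65 with TMM and -0.18 with the miRNA total. High ratios are in part built in by the need to be above the limit in lung. Among them were the heart muscle miRNAs miR-208a, at least 26.5-fold higher with 1 of 2 NMG samples above the limit, and miR-208b, at least 22.4-fold higher.

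**Figure D2:**
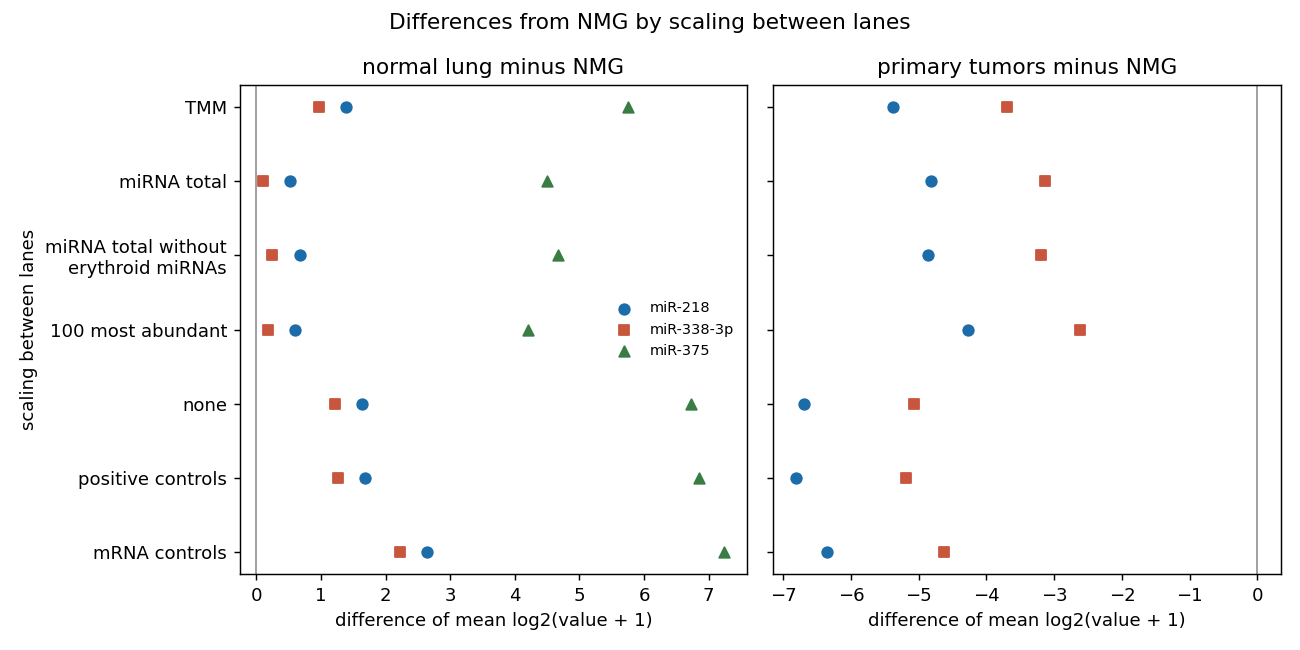
Difference of mean log2(value + 1) under 7 ways of scaling lanes, with 1 point per miRNA and scaling. The left panel shows normal lung from NMG for all 3 miRNAs. The right panel shows PT from NMG for miR-218 and miR-338-3p, without miR-375, which was under the limit in both. In the left panel miR-338-3p runs from 0.10 with the miRNA total to 2.22 with the mRNA controls, and miR-375, whose NMG samples were under the limit, lies at 4.20 or above throughout. In the right panel miR-218 and miR-338-3p lie below 0 under each scaling.

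Against lung metastasis, taken from the same organ, all 3 miRNAs were higher in normal lung. With metastasis values under the limit set to it, the excess with TMM was at least 35.8-fold for miR-218, 14.0-fold for miR-338-3p and 7.68-fold for miR-375. These bounds fell to 10.1, 4.0 and 2.22 when lanes were scaled by the top 100 miRNAs, the lowest over 7 scalings. No metastasis passed the limit for miR-218 or miR-375, and 2 of 4 did for miR-338-3p. With values under the limit set to it, the positions among the 249 were 6 for miR-218, 14 for miR-338-3p and 34 for miR-375, where the ratios are bounds that depend on the limit and on the level in lung, so that the true order is not known. The 3 of highest ratio with TMM were the erythroid miR-144, at least 381-fold higher, its cluster partner miR-451, 120-fold higher, and the muscle miRNA miR-1, at least 52.6-fold higher.

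The fall from NMG to PT was of the same kind for miR-218 and miR-338-3p. NMG was at least 12.6-fold above PT for miR-218, with 3 of 12 PT samples above the limit, and at least 9.77-fold above for miR-338-3p, with 8 of 12. Scaled by the top 100 miRNAs, these bounds were 6.06 and 4.68. For miR-375 both NMG and PT were under the limit, and no fold is given. Lung metastasis and PT overlapped for all 3 miRNAs. For miR-338-3p the metastasis level was 22.0 ± 6.71 (SD, n = 4) beside 16.8 ± 7.72 (SD, n = 12) in PT, a difference smaller than either spread, and scaling by the positive controls turned its sign.

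Some of the marker lists shared the order of groups seen for miR-218. For miR-375 no order below normal lung could be read, since NMG and all tumor samples were under the limit. The endothelial pair miR-126-3p and miR-126-5p summed to 68956 in normal lung, 14310 in NMG, 1589 in carcinoma, 2168 in areas of EMT-like type, 2242 in metastasis and 0 in the cultures, with 2 of 2 above the limit in every tissue sample and miR-126-3p the more abundant at 62080 in lung. The 3 erythroid miRNAs, led in every tissue by miR-451, summed to 52558, 8314, 155, 177 and 427 in the same 5 tissues, to 13.1 in monolayers and to 2.48 in 3D spheres. The 2 smooth muscle miRNAs, led by miR-145, summed to 11943 in lung, 6815 in NMG and between 873 and 1106 in the tumor groups, with 887 in monolayers and 460 in 3D spheres, nearly all of it miR-145. In each of these lists normal lung was highest, NMG next and tumor areas lower, the order seen for miR-218, and their part in the levels of the 3 miRNAs was not tested.

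The remaining lists did not share that order in every sample. The 3 fibroblast probes, led in lung by miR-199a-3p, summed to 4538 in lung and 8885 in NMG, against 1236 in carcinoma, 1497 in the EMT-like samples and 568 in metastases. The 7 epithelial probes, led in lung by miR-200b, summed to 5566 in lung, 3493 in NMG, 2993 in carcinoma, 3187 in metastasis and just 599 in the EMT-like samples. Carcinoma samples spread from 930 to 5385, and miR-205 made up 1410 of the sum in NMG but 53.9 in carcinoma and 29.8 in metastasis. The 5 leukocyte probes, led in the normal tissues by miR-142-3p, summed to 5507 in lung, 4174 in NMG, between 717 and 1127 in the tumor groups, 872 in monolayers and 1014 in 3D spheres. In the tumor groups and cultures miR-155 led, with 753 in monolayers and 901 in 3D spheres. In the first mouse the NMG sum of 5720 lay above the lung sum of 4834, and miR-155 was higher in the tumor groups and cultures than in either normal tissue.

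In the ciliated cell list 1 probe carried the sum. Its 6 probes summed to 1110 in lung, 431 in NMG, between 1085 and 1599 in the tumor groups, 1644 in monolayers and 2224 in 3D spheres, of which miR-34c made up 844 in lung and 1326 in carcinoma. The airway miRNA miR-449a ran the other way, with 79.5 in lung and 9.36 or less in every other group, and miR-34b-5p with 103 in lung and 19.6 or less elsewhere. Both were thus highest in normal lung, as miR-375 was, but miR-34b-5p passed the limit in 5 of 7 EMT-like samples and miR-375 in none. Less alike was miR-34b-3p, at 81.5 ± 51.2 (SD, n = 2) in lung, 52.1 in monolayers and 54.6 in 3D spheres. It passed the limit in all 7 EMT-like samples and in 2 of 2 samples of each culture group. miR-449b and miR-449c were at 2.08 or less in every group. The part of these probes in the miR-375 level was not tested.

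The neural and neuroendocrine list was also carried by 1 probe. Its 6 probes summed to 64.8 ± 20.7 (SD, n = 2) in lung, led by miR-219 at 16.9 ± 15.1 (SD, n = 2) with 1 of 2 samples above the limit. They summed to 63.7 ± 5.52 (SD, n = 2) in NMG, 1049 in carcinoma, 702 in metastasis and 740 in the EMT-like samples. In the tumor groups nearly all of this was miR-9, at 1029, 656 and 707 in the same order, while miR-219 was at 9.69 in NMG and at 0 in every tumor and culture group. The 7 striated muscle probes, led by miR-1, summed to 885 and 1942 in the 2 lung samples and to 1032 and 50.9 in the 2 NMG samples. Those of heart muscle, miR-208a and miR-208b, reached 150 ± 49.1 (SD, n = 2) and 104 ± 2.49 (SD, n = 2) in lung, with miR-499 under the limit. Whether these values bear on the level of miR-375 was not tested.

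Tests were possible where neither group had chosen the miRNAs. Between carcinoma and EMT-like areas, miR-218 differed by -2.54 (SE 0.61) on the log2 scale, lower in carcinoma, with a limma adjusted p of 0.0617, and was not called. Of the 583 probes tested 1 was called, or 0.172%. Carcinoma read lower in 4 of 4 pairs of areas with the same label, 1 of them the label naming 3 animals. The values were -3.75, -4.81, -3.52 and -1.30, no measured differences, since every carcinoma value was under its limit. In the pairs at -3.75 and -3.52 the scaled carcinoma limits, 22.8 and 24.6, lay above the EMT-like values, 12.4 and 10.5. Those pairs give no direction. In the others the EMT-like values, 27.0 and 18.3, lay above the scaled carcinoma limits, 11.1 and 11.9. With carcinoma likewise under the limit, the difference was -3.52 within the animals with lettered labels and -1.83 within those with numbered labels. With the animal as replicate block the difference was -3.06 with an adjusted p of 0.418, and limma called 0 probes, with 37 at an unadjusted p under 0.05. The call was reached under other settings, as without scaling at an adjusted p of 0.0230, in a range from 0.0165 to 0.513 over all alternatives.

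The miR-218 difference stood at the limit of the assay. No carcinoma sample and 3 of 7 EMT-like samples passed it. In the marker lists limma called 0 of 41 probes in this comparison, with 10 at an unadjusted p under 0.05, beside 81 of all 583 probes. Of these 10, 6 were among the 7 epithelial probes, whose median difference was 2.79 on the log2 scale, higher in carcinoma, with miR-200b, miR-200c and miR-203 at a limma adjusted p of 0.0617, like miR-218. The epithelial sum was higher in carcinoma in 3 of the 4 pairs and lower in the other, at 930 beside 1245. Both miR-218 values of that pair were under the limit. The part of epithelial content in the miR-218 difference was not tested. miR-338-3p differed by -0.20 (SE 0.46, adjusted p of 0.956 by limma) and its sign turned with the replicate block, at 0.39. miR-375 was under the limit in all 12 samples.

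Cultured cells had no readable miR-218 and no readable miR-375. Against PT, the cultures differed in miR-218 by -2.32 (SE 0.60) on the log2 scale, with a limma adjusted p of 0.00453, and the probe was called lower. Calls were common here, at 177 of 583 probes or 30.4%, of which 50 were higher and 127 lower in culture. This balance turned with scaling, as 223 rose and 60 fell when scaled by the top 100 miRNAs, and 144 rose and 87 fell when scaled by the miRNA total. All 4 cultures and 9 of 12 PT samples were under the limit, and the highest PT value, 27.0, lay below the lowest scaled limit of a culture, 27.5. With a further 2 SD of the negative controls subtracted, the difference was 0.15 with an adjusted p of 0.764.

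miR-338-3p was not called between cultures and PT, at 0.52 (SE 0.46, adjusted p of 0.481 by limma), with 1 of 4 cultures and 8 of 12 PT samples above the limit. Its sign depended on scaling, from -0.34 with none to 2.83 with the 100 most abundant miRNAs, where it was called higher. In the same comparison, with TMM, 23 of the 41 list probes were called, beside 30.4% of all 583 probes, with 50 of all probes higher and 127 lower. Several cell type lists held probes called lower in culture. Both endothelial, both smooth muscle, 2 of 3 fibroblast and 2 of 3 erythroid probes were among them, as were 5 of 7 epithelial probes, all of the miR-200 family. The smooth muscle miR-145 was called narrowly, at -0.68 with a limma adjusted p of 0.0445. It stood at 838 ± 614 (SD, n = 2) in monolayers beside 915 in carcinoma and 976 in EMT-like areas. Of the other lists, 2 of 6 ciliated cell and 2 of 7 striated muscle probes were called higher. Of the latter, miR-133b was above the limit in 1 monolayer, 1 carcinoma sample and no sphere or EMT-like sample. The leukocyte and neuroendocrine lists held calls in both directions, 2 and 2 of 5 and 1 and 1 of 6, where miR-7b, called higher, was under the limit in all 4 cultures.

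Between 3D spheres and monolayer only miR-338-3p had a value above the limit, in 1 of 2 sphere samples. The difference was 0.22 (SE 0.79, adjusted p of 1 by limma) in a comparison with 27 of 583 probes called, 4.63%, and 0 called with only the groups compared, and the sign turned without the second sphere sample, at -0.64. Within the lists, miR-486 of the erythroid list was the only probe called in the main fit, between values that were under the limit in all 4 cultures.

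The 2 strands of the miR-338 hairpin did not share the pattern. The panel holds a probe for the other strand, mmu-miR-338-5p, and none named for another strand of the miR-218 or miR-375 hairpins. Its deposited counts were 7 and -5 in normal lung, both under the limit, and 16 and 14 in NMG, both above it. In PT they ran from -1 through a median of 12 to 16, with 5 of 12 samples above the limit. In metastasis they ran from 4 to 16, with 2 of 4 above it, and in the cultures from 4 to 12, with 0 of 4. Where miR-338-3p was highest, in normal lung, miR-338-5p was therefore not detectable. The scaled limit of the first lung lane, 9.15, lay above both scaled NMG values, 6.59 and 5.20, so that this lane could not have shown the NMG level.

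Sequences were matched in RefSeq (GRCm38.p6) for 2 of the 3 miRNAs, with miR-218 read as its 5p strand, and for the other strand of miR-338. mmu-miR-375-3p had no entry. The mature strands are shown because the probes read them and because the strands of miR-338 differ in pattern, with the seed in capitals.
mmu-miR-218-5p: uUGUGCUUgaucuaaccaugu
mmu-miR-338-3p: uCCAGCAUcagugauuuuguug
mmu-miR-338-5p: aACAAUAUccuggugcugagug
No seed was shared among these. Of 1679 mature mouse miRNAs in the table, 1 other had the miR-218 seed, mmu-miR-7002-3p, which was not on the panel, and none had either miR-338 seed.

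The miR-218 probe reads the sum of 2 genes, since the same mature strand lies at chr5:48223966-48223986 (plus strand), within the span of Slit2, and at chr11:35616840-35616860 (plus strand), within the span of Slit3. The hairpins are shown because only they differ between the genes, with the mature strand in capitals.
Mir218-1: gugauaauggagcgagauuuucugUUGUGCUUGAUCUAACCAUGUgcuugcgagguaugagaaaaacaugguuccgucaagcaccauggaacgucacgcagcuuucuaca
Mir218-2: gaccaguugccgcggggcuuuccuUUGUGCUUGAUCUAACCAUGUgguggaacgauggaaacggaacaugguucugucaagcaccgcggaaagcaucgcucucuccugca
They had the same base at 71 of 110 positions, 64.5%, without gaps. miR-338-3p lies at chr11:120014781-120014802 and miR-338-5p at chr11:120014816-120014837 (minus strand), both within the span of Aatk, and the Mir375 hairpin at chr1:74900658-74900721 (minus strand) lies within the span of no other gene in the annotation.

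The miRNAs most like each of the 3 were found by the root mean square difference of centered log2 group means over 7 groups, among the 248 other miRNAs above the limit in both normal lung samples. Likeness is in part built in, because values in normal lung chose both the 3 miRNAs and these candidates, and is given as a description. Nearest to miR-218 were miR-101a (1.08), the muscle miRNA miR-1 (1.10) and miR-29c (1.17). Nearest to miR-338-3p were miR-713 (0.25), miR-450b-3p (0.41) and miR-500 (0.45), whose lung levels of 39.4, 21.3 and 11.3 were low. Their means were 3.34 or less in every tumor and culture group, so that this order rests largely on values near the floor. Nearest to miR-375 were miR-208a (0.41), miR-466j (0.65) and miR-302b (0.78), with means of 0.24 or less in every tumor and culture group. The distance was 1.99 between miR-218 and miR-338-3p, 2.19 between miR-218 and miR-375 and 1.30 between miR-338-3p and miR-375. These distances depend on groups at the floor, where miR-375 was at 0 in every tumor and culture group and miR-218 at 0 in the cultures. They give no measured order of likeness, since in NMG miR-218 and miR-338-3p stood at 208 and 202 and miR-375 was under the limit.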

How the data were processed

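Total RNA of laser-captured tissue and of cultures was measured on an nCounter mouse miRNA panel in 24 samples. The table the authors deposited holds counts less the average of the lane's 6 negative controls, since these controls average close to 0 in every lane, and lanes are not scaled to each other. Other steps were not given in the sources used here. The submitters' processing notes name Partek with no role. Of the miRNA values 35.2% lie below 0.

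Values were floored at 0 and scaled by TMM (trimming 30% by log ratio and 5% by level) over mouse and viral miRNAs. All 24 samples were fitted with limma 3.58.1 (R 4.3.3, trend) on log2(value + 1), without a block. Benjamini-Hochberg adjustment covered the 583 probes above 0 in at least 1 sample, and probes were called at an adjusted p under 0.05. The p-values measure only the spread between these samples after flooring, and those over areas that share an animal may be too small. Setting values below 0 to 0 left miR-218 without spread in the cultures. These samples enter the estimate of spread that all groups share, so that the p-values of miR-218 may be too small for this reason too. A fold against a group with samples under the limit is a lower bound, with these set to the limit. Fits were tested on simulated data. Figures used Python 3.11.15 with matplotlib 3.10.9, numpy 2.4.6 and pandas 2.3.3.

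No pair of replicates had more than 9.01% identical values. Pairing of tissue samples comes from the animal names in the labels, and that of the cultures from their replicate numbers alone. Over 196 probes, 10 pairs of tumor samples from the same animal had correlations of their deviations from group means from -0.31 to 0.30, with a median of 0.10.

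The miRNAs named are the 3 chosen, other strands of their hairpins, the 3 nearest in pattern to each, the 3 of highest lung ratio, and 9 marker lists (epithelial, ciliated cell, endothelial, smooth muscle, fibroblast, striated muscle, erythroid, leukocyte, neural and neuroendocrine), by counts with the most abundant in lung. Others among the lists were named after their values were seen. The 3 miRNAs and the lists were chosen with earlier results of these data known.

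Alternatives were 5 other scalings, a pseudocount of 10, a higher background (a further 2 SD of the negative controls subtracted, floor of 1), a filter (20 or more in 2 or more samples), only the groups compared, the replicate block, the series of animals (lettered or numbered labels) and each replicate left out. Scaling by the miRNA total without miR-144, miR-451 and miR-486, and values under the limit set to it, with TMM or with the 100 most abundant miRNAs, were added after seeing the data.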

Additional observations from a re-analysis of the deposited data

Results flagged for a closer look

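In carcinoma, the scaled but unfloored miR-375 value of the third replicate was -15.32, with the nearest of the other 4 at -12.49, a gap of 0.807 of the range of the group (n = 5). All 5 values lay under the limit, so the gap lies among background readings. Of the 12 groups of values examined 1 stood out in this way, where chance marks about 1 in 20. Numbered minus lettered animals, the difference of carcinoma from EMT-like areas was 1.69 on the log2 scale for miR-218 and 1.05 for miR-338-3p, neither called by limma (adjusted p of 1 for each).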

How the results depend on the processing

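Differences here are on the log2 scale, and the causes of their shifts were not tested. For normal lung minus NMG, in the order miR-218, miR-338-3p and miR-375, the values were 1.39, 0.97 and 5.76. The third is against NMG values under the limit and is no measured difference under any scaling, with bounds of 4.64 for TMM, 3.64 for the total and 3.53 for the 100 most abundant when these are set to the limit. All 3 values were 0.52, 0.10 and 4.50 with the miRNA total, 0.60, 0.18 and 4.20 with the 100 most abundant miRNAs and 2.64, 2.22 and 7.24 with the mRNA controls. The total without erythroid miRNAs gave 0.67 and 0.25 for miR-218 and miR-338-3p, no scaling gave 1.63 and the positive controls 1.69 for miR-218, and the pseudocount of 10 gave 3.44 for miR-375. Leaving out a replicate gave 4.638 to 6.874 for miR-375 in this comparison. No setting turned these signs. Normal lung minus lung metastasis was 8.10, 4.13 and 6.87, where metastases under the limit again make the values for miR-218 and miR-375 no measured differences. It was 9.86, 6.25 and 8.46 without scaling, 6.21, 2.33 and 4.90 with the 100 most abundant, 6.71, 2.66 and 5.44 with the total, 6.90, 2.86 and 5.62 with the total without erythroid miRNAs, 10.26, 6.61 and 8.94 with the mRNA controls, 10.02, 6.50 and 8.61 with the positive controls and 5.59, 3.66 and 3.66 with the pseudocount of 10. The higher background gave 5.77 for miR-338-3p and 5.49 for miR-375, and values set to the limit 5.16 for miR-218 and 2.94 for miR-375. With both the limit and the 100 most abundant, chosen after seeing the data, they were 3.34, 1.999 and 1.15. Leaving out a replicate gave 6.44 to 7.31 for miR-375. PT minus NMG was -5.39 for miR-218 and -3.69 for miR-338-3p, with -6.69 and -5.06 without scaling, -4.27 and -2.61 with the 100 most abundant, and -6.81 and -5.19 with the positive controls. The mRNA controls gave -4.63 and the higher background -5.22 for miR-338-3p, and the pseudocount of 10 gave -3.76 and values set to the limit -3.66 for miR-218. The limit with the 100 most abundant gave -2.60 and -2.23. Metastasis minus PT for miR-338-3p turned from 0.53 to -0.042 with the positive controls. Scaling moved the median lung miRNA too, by -0.82 with the total and 1.25 with the mRNA controls for lung minus NMG.

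Of the tested differences, carcinoma minus EMT-like for miR-218 was called without scaling (-2.76, adjusted p of 0.0230), with the positive controls (-2.76, 0.0207), the 100 most abundant (-2.68, 0.0282) and the filter (-2.54, 0.0320). That filter supports no call here, since only 1 of the 20 tumor and culture samples reached 20 and the probe passed it through normal lung and NMG. Leaving out a replicate gave -3.02 to -2.28, with calls without carcinoma replicate 5 (0.0165), EMT-like replicate 2 (0.0428) and lung metastasis replicate 4 (0.0396). For miR-338-3p the sign turned with the replicate block (0.39), with the series of animals (0.013) and without carcinoma replicate 3. Its range was -0.48 to 0.37 with a replicate left out and -0.60 to 0.39 over the other settings. Cultures minus PT turned for miR-218 only with the higher background (0.15). For miR-338-3p it turned without scaling (-0.34), with the positive controls (-0.22) and the higher background (-0.28), and was called higher with the 100 most abundant (2.83), the total (1.56) and the total without erythroid miRNAs (1.56). For 3D spheres minus monolayer, miR-338-3p turned with the total (-0.038), with that without erythroid miRNAs (-0.038), with the positive controls (-0.074) and without 3D spheres replicate 2. Its range was -0.64 to 1.07 with a replicate left out and -0.074 to 1.25 over the other settings. The replicate block, run for carcinoma against EMT-like areas and for 3D spheres against monolayer, changed no call of the 3 miRNAs.

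Probes called numbered 1 between carcinoma and EMT-like areas, with 7 without scaling, with the positive controls and with the filter, 2 with the 100 most abundant, 0 by limma with the pseudocount of 10, the higher background and the replicate block (70, 161 and 37 at an unadjusted p under 0.05), and 1 to 19 with a replicate left out. They numbered 177 between cultures and PT, with 283 for the 100 most abundant, of which 223 were higher, and 365 for the higher background. The total gave 144 higher and 87 lower, no scaling 4 and 151, the positive controls 6 and 146 and the mRNA controls 10 and 122. For 3D spheres they numbered 27, with 41 for either total, 40 for the 100 most abundant, 8 without scaling and with the positive controls, 9 with the mRNA controls, 16 with the higher background and with the block, 0 with only the groups compared (21 at an unadjusted p under 0.05) and 12 to 49 with a replicate left out.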
